A study of Mus musculus with 6 samples.

Results

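The 10 genes described here steer and drive migrating interneurons, and were followed across cultures of mouse GABAergic interneurons: the receptors Cxcr4, Ackr3 and Erbb4, the neuregulin ligands Nrg1 and Nrg3, the doublecortin proteins Dcx and Dclk1, the kinase Cdk5 with its activator Cdk5r1 (p35), and Pafah1b1 (Lis1). They were chosen by symbol, and each of the 10 symbols matched 1 row among the 55335 genes of the table. The cells came from wild-type C57BL/6 embryos at embryonic day 14.5, were kept in culture, and were exposed for 12 hours to an adeno-associated virus (AAV). Of the 6 libraries, 3 are labelled AAV-shbrpf1, after a hairpin that targets Brpf1, and 3 AAV-scramble, so both groups were infected and no uninfected cells were analysed here. The titles call the cells GABAergic interneurons and the source field neural progenitor cells, and no promoter of the virus is named. The study asks what Brpf1, a scaffold of histone acetyltransferase complexes, does in interneurons of the medial ganglionic eminence. Each library has a number from 1 to 3 in its title, and every number occurs once in each group. Nothing in the labels says what a number stands for or that the samples of a group were separate cultures, so p-values cover only sample-to-sample spread, possibly technical.

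Interneurons born in the ventral forebrain travel tangentially into the cortex. Cxcr4 holds them in migratory streams by sensing the chemokine Cxcl12, while Ackr3 binds the same ligand and takes it up without coupling to G proteins in the usual way. Erbb4 reads neuregulin cues along the route, Dcx and Dclk1 bind microtubules in the leading process, and Cdk5 with p35 and Lis1 with dynein move the nucleus forward.

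Levels are given in FPKM, fragments per kilobase of transcript scaled to library size, which can be compared between genes. Depth, estimated from the steps between low values, was 13.1 to 21.1 M fragments per library. Brpf1 itself stood at 3.13, 4.58 and 3.78 FPKM in AAV-shbrpf1 libraries 1 to 3, against 3.29, 5.45 and 4.84 FPKM in AAV-scramble libraries 1 to 3, and the groups overlapped. It was lower with AAV-shbrpf1 in 3 of 3 pairs, as were 11.3% of all genes, with a log2 difference of -0.18 ± 0.10 (SE) under a block on the number, which did not pass (limma adjusted p = 1). All 10 GABAergic interneuron markers were measured, and their summed level was 866 to 1098 FPKM with AAV-shbrpf1 and 829.8 to 1298 FPKM with AAV-scramble. The markers in this sum did not move together: Gad1 and Gad2 were highest in number 1 in both groups, where Sst and Npy were lowest. With AAV-shbrpf1, markers of radial glia and progenitors summed to 284 to 937 FPKM, of astrocytes to 189 to 287 FPKM and of the oligodendrocyte lineage to 125 to 255 FPKM. With AAV-scramble these sums were 315 to 891, 192 to 327 and 109 to 270 FPKM. Glutamatergic markers (at most 0.950 FPKM for 6 genes) and microglial markers (at most 0.825 FPKM for 5 genes, Cx3cr1 listed at 0 in every library) were near 0, endothelial and mural markers summed to at most 3.03 FPKM, and cycling cell markers to 31.7 to 68.1 FPKM with AAV-shbrpf1 and 35.6 to 64.0 FPKM with AAV-scramble. In such mixed cultures fewer cells of a type and less RNA per cell cannot be told apart.

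The promoters of the chemokine receptors are shown because these genes had the most alike profiles among the receptors described here, and that of Erbb4 because its profile differed from theirs. Each sequence is the 250 bases before the RefSeq transcript start in GRCm38.p6, read 5′ to 3′ on the gene's own strand. Cxcr4 lies at chr1:128592300-128592549 on the minus strand, Ackr3 at chr1:90203730-90203979 on the plus strand and Erbb4 at chr1:69108060-69108309 on the minus strand. Capitals mark matches to the TATA box TATAAA and to the GC box GGGCGG, searched on both strands.
Cxcr4: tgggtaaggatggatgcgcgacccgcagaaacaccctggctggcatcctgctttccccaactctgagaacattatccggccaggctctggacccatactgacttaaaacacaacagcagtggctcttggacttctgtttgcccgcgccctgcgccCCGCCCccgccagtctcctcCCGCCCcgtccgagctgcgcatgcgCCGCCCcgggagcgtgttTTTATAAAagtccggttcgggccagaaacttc
Ackr3: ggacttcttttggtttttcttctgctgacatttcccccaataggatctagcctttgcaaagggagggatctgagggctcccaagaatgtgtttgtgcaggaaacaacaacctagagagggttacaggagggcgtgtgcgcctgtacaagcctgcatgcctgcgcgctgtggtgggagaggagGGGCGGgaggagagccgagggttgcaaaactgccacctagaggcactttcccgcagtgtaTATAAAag
Erbb4: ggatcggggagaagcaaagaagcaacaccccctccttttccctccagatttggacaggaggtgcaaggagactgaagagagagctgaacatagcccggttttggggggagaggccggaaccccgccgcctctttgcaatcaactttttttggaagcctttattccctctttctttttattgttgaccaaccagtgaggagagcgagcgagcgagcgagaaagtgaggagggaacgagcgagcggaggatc
Cxcr4 held TATAAA from base 30 to base 25 before its start, overlapped by a match on the other strand, as well as 3 GC boxes. Ackr3 held 1 GC box, and its TATAAA lay from base 8 to base 3 before the start. Neither motif was in the Erbb4 window. Among 32851 promoters of the same length, 12.4% held TATAAA and 32.7% the GC box. RefSeq entries were matched for 7 of the 10 genes, and besides Cxcr4 and Ackr3 only Dcx held any of these letters, a TATAAA.

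The level of the 10 genes spanned from abundant motility proteins to barely detected Nrg1. Cdk5r1, the p35 activator that switches on Cdk5, was the highest at a mean of 73.7 FPKM over the 6 libraries, followed by Pafah1b1 at 42.9. Dcx, Cdk5, Erbb4 and Dclk1 came next at 31.3, 31.2, 29.5 and 28.1 FPKM, an order in which the libraries of neighbours overlapped, as did those of Cdk5r1 and Pafah1b1. Ackr3, Cxcr4 and Nrg3 lay below them without overlap, at 4.49, 3.93 and 2.39 FPKM, and overlapped each other. Nrg1 averaged 0.251 FPKM, below the lowest library of Nrg3.

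**Figure D1:**
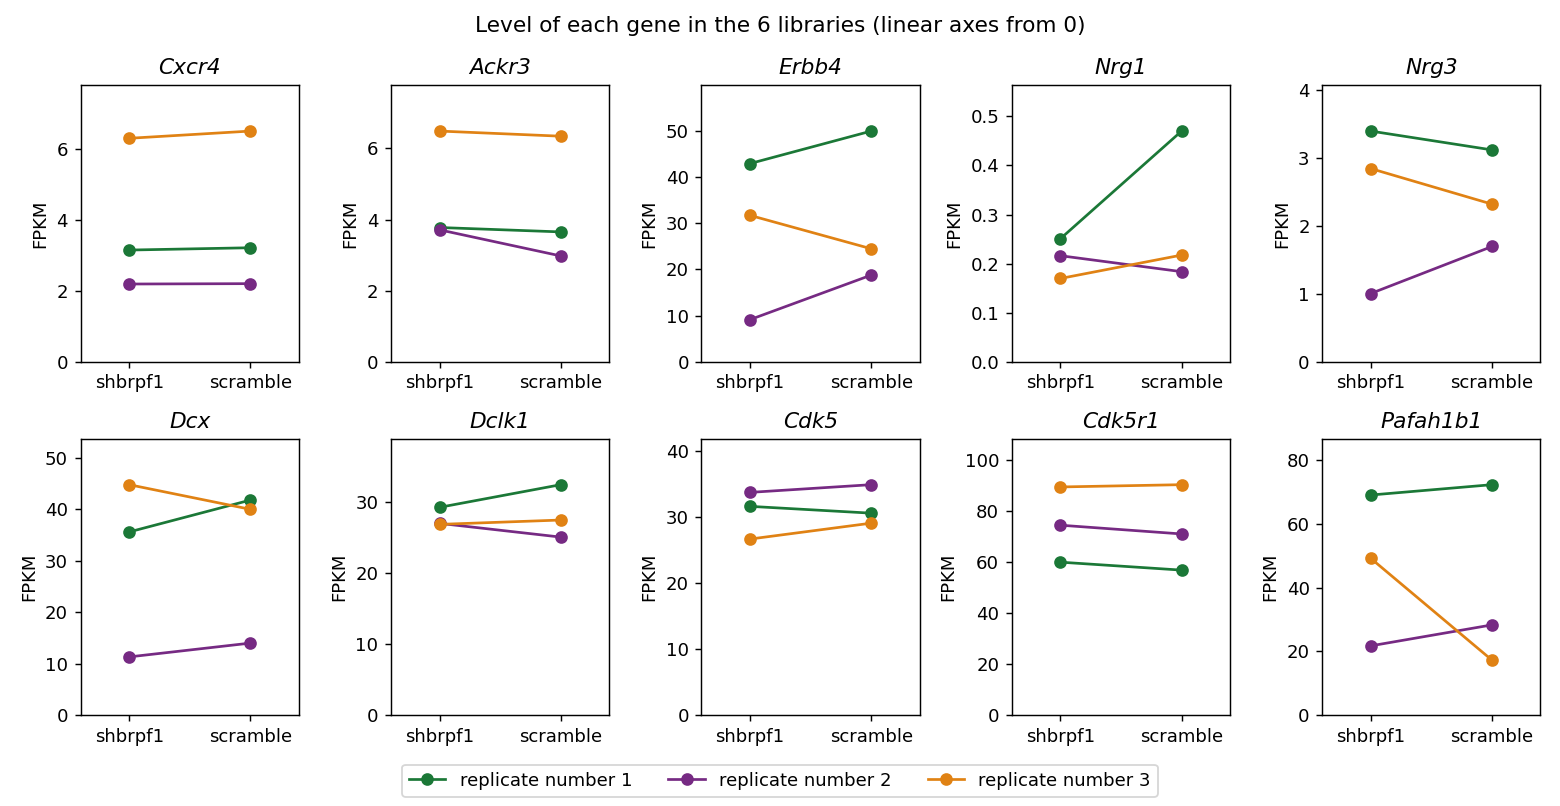
Level of each gene in FPKM (y axis, linear from 0) in the AAV-shbrpf1 and AAV-scramble libraries (x axis); a line joins the 2 libraries that share a replicate number. The lines of Cxcr4 and Cdk5r1 run nearly flat and apart from each other, while those of Erbb4 and Pafah1b1 cross or slope in opposite ways.

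No migration gene passed the test between AAV-shbrpf1 and AAV-scramble. All but Nrg1 reached a group mean of 1 FPKM and were tested; of these 9 genes 0 were higher and 0 lower at a limma adjusted p under 0.05, and 0 of 12792 genes tested were called (0%). At an unadjusted p under 0.05 there were 0 of these 9 genes and 23 of all genes (0.18%). That fit had no block, so the spread between numbers counted as error and made it cautious. The differences on the log2(FPKM + 1) scale ran from -0.27 to 0.34 with a median of -0.024, against a median of -0.023 over all genes tested. Blocking on the replicate number, the count was again 0 (0% of all genes; 280 of all genes and 0 of the 9 at an unadjusted p under 0.05). The groups overlapped for each of the 9 genes, where 1.07% of all genes had groups that did not.

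Of the chemokine receptors, Cxcr4 (ENSMUSG00000045382, chr1:128588199-128592293, minus strand) stood at 3.15, 2.19 and 6.297 FPKM in AAV-shbrpf1 libraries 1 to 3 and at 3.21, 2.201 and 6.501 FPKM in AAV-scramble libraries 1 to 3. Within each number the libraries were nearly equal, while number 3 was high and number 2 low in both groups. The log2 difference of -0.022 ± 0.42 (SE) had a 95% interval from -1.02 to 0.97, or from -0.26 to 0.22 when the number was a block. Each library held an estimated 51.8 to 244 Cxcr4 fragments, and the ratios of AAV-shbrpf1 over AAV-scramble of 0.98, 0.995 and 0.969 in pairs 1 to 3 all lay within counting error. Cxcr4 was 1 of 9 tested migration genes that were lower in 3 of 3 pairs, where 11.3% of all genes were.

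Ackr3 (ENSMUSG00000044337, chr1:90203980-90216751, plus strand) is the scavenging receptor for Cxcl12. Its level was 3.78, 3.71 and 6.49 FPKM with AAV-shbrpf1, against 3.65, 2.98 and 6.34 FPKM with AAV-scramble in libraries 1 to 3. It was also highest in number 3 in both groups. The difference was 0.10 ± 0.32 (SE; 95% interval -0.66 to 0.86, and -0.15 to 0.36 with the block). It was higher in 3 of 3 pairs, as were 7.15% of all genes, but by 1.03, 1.25 and 1.02 times, and the counting intervals of pairs 1 and 3 included no change.

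Erbb4 (ENSMUSG00000062209, chr1:68032186-69108059, minus strand) encodes a neuregulin receptor tyrosine kinase. It stood at 42.9, 9.11 and 31.7 FPKM with AAV-shbrpf1, against 49.9, 18.8 and 24.5 FPKM with AAV-scramble in libraries 1 to 3. Number 1 was the highest and number 2 the lowest in both groups, and the viruses differed in opposite directions in pairs 2 and 3. The ratios of AAV-shbrpf1 over AAV-scramble were 0.859, 0.486 and 1.296 in pairs 1 to 3, all outside counting error, with 1437 to 9943 estimated fragments per library. The mean difference was -0.27 ± 0.60 (SE; 95% interval -1.68 to 1.13), or -0.88 to 0.33 with the block. Without pair 3 under the block it was -0.59 at an unadjusted p of 0.0294 and an adjusted p of 0.795, in a fit where 5.18% of all genes had an unadjusted p under 0.05, and without pair 2 it turned to 0.073. Annotated inside Erbb4 are 8 other genes, all on its own strand, whose reads may be counted with it.

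The ligand gene Nrg3 (ENSMUSG00000041014, chr14:38368952-39473088, minus strand) was low, at 3.39, 1.00 and 2.84 FPKM with AAV-shbrpf1 and 3.11, 1.69 and 2.32 FPKM with AAV-scramble. The signs of its 3 pair differences, at 0.094, -0.43 and 0.21 on the log2(FPKM + 1) scale, matched those of Erbb4 in pairs 2 and 3 only. Over all libraries the difference was -0.041 ± 0.35 (SE; 95% interval -0.87 to 0.79, and -0.43 to 0.35 with the block). The other neuregulin, Nrg1 (ENSMUSG00000062991, chr8:31814551-32884797, minus strand), was at 0.251, 0.216 and 0.1697 FPKM with AAV-shbrpf1 and 0.470, 0.184 and 0.217 FPKM with AAV-scramble. With an estimated 15.2 to 36.3 fragments per library it was below the filter on low values, and counting error by itself came to 16.6% to 25.6% of a value. Genes annotated within Nrg3 (4) and Nrg1 (2), most of them on the opposite strand, may add reads to either. When no filter was used the Nrg1 difference was -0.084 ± 0.10 (SE; limma adjusted p = 1).

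Dcx (ENSMUSG00000031285, chrX:143855842-143933311, minus strand) is the doublecortin gene of migrating neurons. It was at 35.6, 11.4 and 44.8 FPKM with AAV-shbrpf1, against 41.8, 14.04 and 40.03 FPKM with AAV-scramble in libraries 1 to 3. Both libraries numbered 2 lay far under the other 4. The ratios of the viruses were 0.852, 0.809 and 1.12 in pairs 1 to 3, and the mean difference was -0.12 ± 0.60 (SE; 95% interval -1.52 to 1.29, and -0.39 to 0.16 with the block). Without pair 3 under the block it was -0.25 at an unadjusted p of 0.0417 and an adjusted p of 0.795, in that same fit. Dclk1 (ENSMUSG00000027797, chr3:55242364-55539068, plus strand) encodes a doublecortin protein with a kinase domain and was the steadiest gene of the 10, with 29.3, 27.05 and 26.9 FPKM with AAV-shbrpf1 against 32.5, 25.1 and 27.5 FPKM with AAV-scramble. Its highest library was 1.29 times its lowest, close to the 1.31 of Cdk5, whereas for Dcx that fold was 3.95. The difference between the viruses for Dclk1 was -0.024 ± 0.22 (SE; 95% interval -0.53 to 0.48, and -0.24 to 0.19 with the block). Without the use of strand being stated, reads of Dclk1 may include those of 6 genes annotated within it, among them Gm21954 on the opposite strand.

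Cdk5 (ENSMUSG00000028969, chr5:24418241-24423530, minus strand) encodes a kinase of cytoskeletal proteins. It was at 31.7, 33.8 and 26.7 FPKM with AAV-shbrpf1 and 30.7, 34.97 and 29.1 FPKM with AAV-scramble. Number 2 was highest in both groups, where Dcx was lowest. The difference was -0.041 ± 0.22 (SE; 95% interval -0.56 to 0.48, and -0.24 to 0.16 with the block). For Cdk5r1 (ENSMUSG00000048895, chr11:80477023-80481184, plus strand) the values were 59.99, 74.5 and 89.4 FPKM with AAV-shbrpf1 and 56.9, 71.03 and 90.3 FPKM with AAV-scramble. Number 1 was lowest and number 3 highest in both groups, and the ratios were 1.05, 1.05 and 0.99 in pairs 1 to 3. This gave a difference of 0.043 ± 0.28 (SE; 95% interval -0.62 to 0.70, and -0.15 to 0.23 with the block).

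Pafah1b1 (ENSMUSG00000020745, chr11:74673949-74724670, minus strand), which encodes the dynein regulator Lis1, had the widest difference between the viruses on the log2(FPKM + 1) scale among the 9 genes tested. Its level was 68.96, 21.8 and 49.1 FPKM with AAV-shbrpf1, against 72.2, 28.3 and 17.3 FPKM with AAV-scramble in libraries 1 to 3. In pair 3 the AAV-shbrpf1 library was 2.85 times the AAV-scramble library (counting interval 2.73 to 2.97), while in pairs 1 and 2 it was 0.955 and 0.768 times. The mean difference of 0.34 ± 0.60 (SE; 95% interval -1.06 to 1.74, and -0.52 to 1.21 with the block) rested on that pair, since without it the difference was -0.22 under the block (adjusted p = 0.795), and without AAV-scramble library 3 alone it was -0.11 (adjusted p = 1). Pafah1b1 has 5 annotated transcripts of 525 to 8570 nt, and a gene-level FPKM sums over them; which of them carried the difference was not tested.

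**Figure D2:**
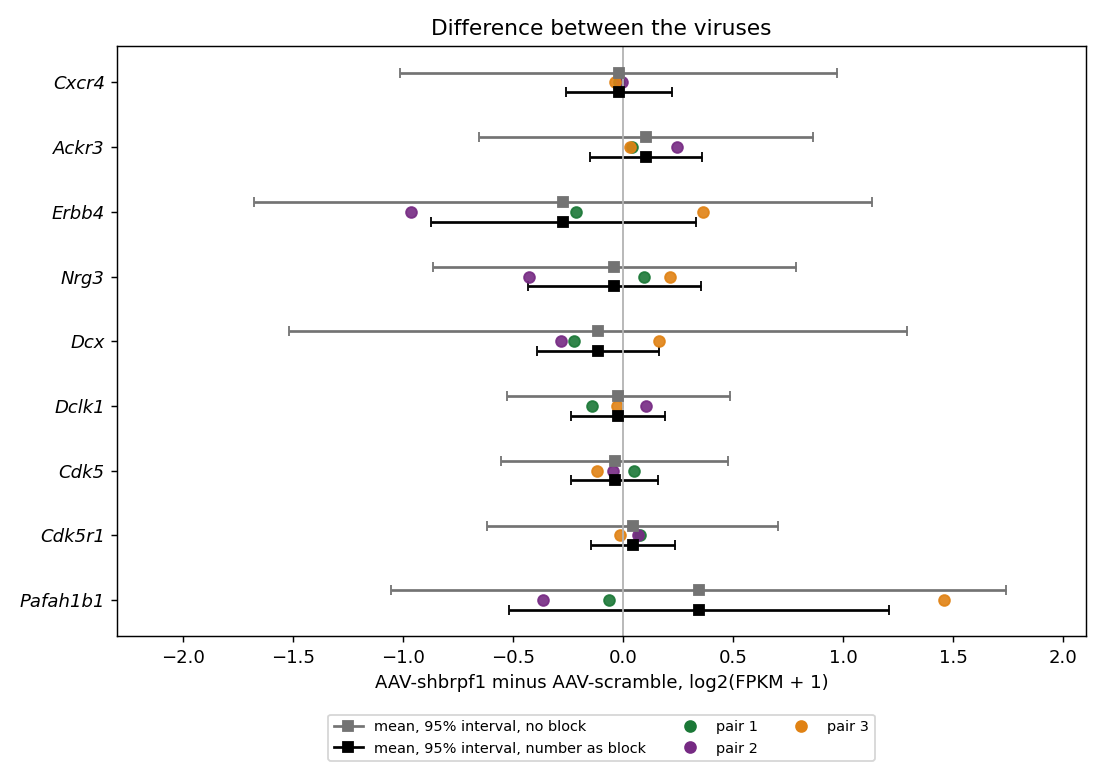
Difference AAV-shbrpf1 minus AAV-scramble on the log2(FPKM + 1) scale (x axis) for the 9 genes tested: circles are the 3 pairs, squares the mean with its 95% interval without (grey) and with (black) the replicate number as a block. Every interval includes 0, and pairs 2 and 3 lie on opposite sides of 0 for 6 of the 9 genes: pair 2 is below and pair 3 above for Erbb4, Nrg3, Dcx and Pafah1b1, and the reverse holds for Dclk1 and Cdk5r1.

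The replicate number, not the virus, held most of the spread of these genes. In log2(FPKM + 1), its part of the total sum of squares was 68.9% for Pafah1b1, 99.9% for Cxcr4 and 90.0% in the median gene of the 9, against 92.1% in the median of all genes tested; the virus held 0.0486% to 4.82%. By limma's F test, 7 of 9 differed between numbers at an adjusted p under 0.05, where 69.4% of all genes did. The adjusted p was 0.00227 for Dcx, 0.00254 for Cxcr4, 0.00649 for Ackr3, 0.0068 for Cdk5r1, 0.00946 for Erbb4, 0.0214 for Nrg3 and 0.0448 for Pafah1b1. Dclk1 (0.176) and Cdk5 (0.0877) did not pass. The ranges of the 3 numbers were apart from each other for 5 of the 9 genes, as for 55% of all genes. When AAV-shbrpf1 library 1 or AAV-scramble library 1 was left out, 3 of the 9 passed, where 41.8% and 37.4% of all genes did in the same fits. Under quantile normalization Dclk1 passed (limma adjusted p = 0.0459) and Nrg3 did not (0.124), and with no virus term in the model Cdk5 passed (0.0439).

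**Figure D3:**
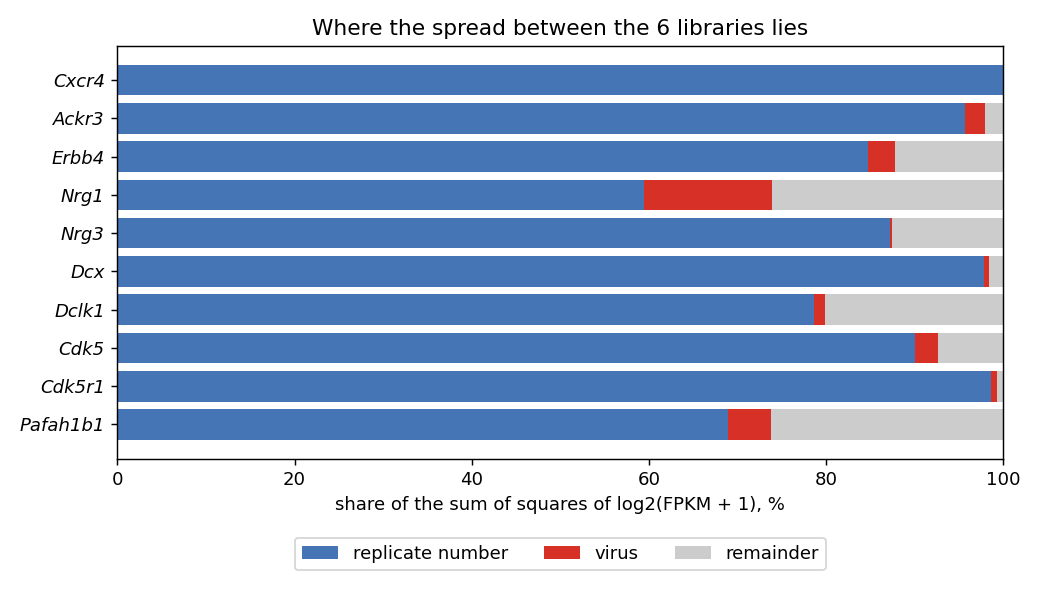
Percent of the total sum of squares (x axis; log2(FPKM + 1), 6 libraries) held by the replicate number (blue), the virus (red) and the remainder (grey), for each gene. The number holds from 59.5% (Nrg1) to 99.9% (Cxcr4).

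The genes did not follow the numbers in one way. Cxcr4, Ackr3 and Cdk5r1 were highest in number 3, Erbb4, Nrg3 and Pafah1b1 in number 1, and Cdk5 in number 2. Relative to the mean of numbers 1 and 3, number 2 was lower by 1.60 for Dcx, 1.39 for Erbb4, 0.85 for Pafah1b1, 0.80 for Cxcr4, 0.75 for Nrg3, 0.45 for Ackr3 and 0.15 for Dclk1 on the log2(FPKM + 1) scale, and higher by 0.21 for Cdk5 and 0.0049 for Cdk5r1. Several measures moved with the same libraries. Ribosomal RNA features made up 36.7% and 29.4% of all FPKM in AAV-shbrpf1 and AAV-scramble library 2, against 7.66% to 11.7% in the other 4. The mitochondrial share of FPKM differed between all 3 numbers. With AAV-shbrpf1 it was 21.2%, 4.75% and 13.4% in libraries 1 to 3, and with AAV-scramble 21.1%, 6.57% and 13.8%. Summed progenitor markers were 284 FPKM in AAV-shbrpf1 library 2 and 315 FPKM in AAV-scramble library 2, against 802 to 937 FPKM in the other 4. Fabp7 made up most of these sums, at 169 and 187 FPKM in the same 2 libraries and 570 to 758 FPKM in the other 4. Slc1a3, Sox2 and Nes were also lowest in number 2 in both groups, as was Pax6, which stayed under the filter on low values. Vim was lowest in number 2 with AAV-shbrpf1, but with AAV-scramble number 3 was lower, at 27.5 against 30.5 FPKM. Hes5 was higher in number 2 than in number 1, at 10.5 against 5.23 FPKM with AAV-shbrpf1 and 7.88 against 3.86 FPKM with AAV-scramble. With AAV-shbrpf1, number 2 was the highest Hes5 library, above 9.95 FPKM in number 3. The part of these measures in the levels of the migration genes was not tested.

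Over the whole table the shifts between numbers varied with the GC content of transcripts. In the median gene number 2 was lower than the others by 0.99 where the longest transcript had under 40% GC and by 0.85 at 40% to 45%, and higher by 0.40 at 55% or more. Number 1 ran the other way, higher than the others by 1.02 under 40% GC and lower by 0.39 at 55% or more. The longest transcripts of Pafah1b1, Dcx and Erbb4 have 40.5%, 40.6% and 40.6% GC, and these are also the 3 genes with transcripts over 8 kb (8570, 9074 and 12037 nt). Those of Cdk5 and Cdk5r1 have 53.4% and 54.2%. Within pairs, genes over 8 kb had a median difference between the viruses of -0.15 in pair 2 and 0.17 in pair 3. Erbb4, Dcx and Pafah1b1 had the same signs in these pairs. The medians varied with GC: genes over 8 kb were at -0.29 and 0.25 at 40% to 45% GC, and at -0.034 and -0.015 at 55% or more. Genes up to 4 kb with 40% to 45% GC were at -0.14 and 0.055. After a smooth trend on GC and length was removed from each library, an alternative chosen after the values were seen, number 2 was lower by 0.39 for Erbb4 and 0.64 for Dcx and higher by 0.11 for Pafah1b1. The adjusted p between numbers was then 0.0901 for Erbb4, 0.152 for Pafah1b1 and 0.0684 for Nrg3, which no longer passed, and 0.0447 for Dclk1, which did; 45.1% of all genes passed. The shifts of Nrg3 remained, at 0.47 in number 1 (0.56 before) and -0.51 in number 2 (-0.75 before), and number 2 of Dclk1 stood at 0.43, against -0.15 before. Dcx (0.00625), Cxcr4 (0.00691), Cdk5r1 (0.0121) and Ackr3 (0.0178) passed under that correction too. Number 3 stayed above the others by 0.86 for Cxcr4, 0.58 for Ackr3, 0.70 for Dcx and 0.45 for Cdk5r1. In pair 3 Pafah1b1 remained higher with AAV-shbrpf1, by 1.22, and in pair 2 Erbb4 remained lower, at -0.61.

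**Figure D4:**
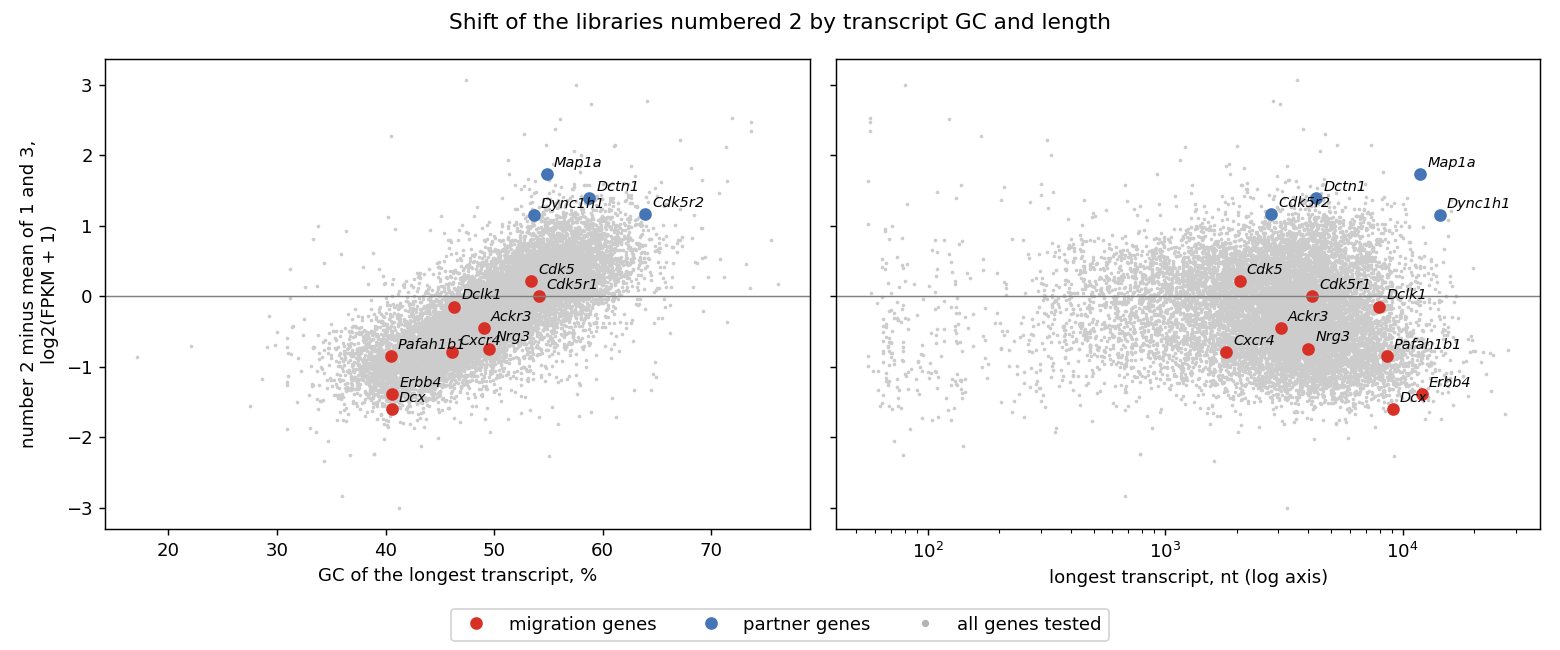
Level in the libraries numbered 2 minus the mean of numbers 1 and 3 on the log2(FPKM + 1) scale (y axis) against GC content in percent (left) and length in nt on a log axis (right) of the longest transcript; red points are migration genes, blue points 4 partner genes, grey points all genes tested. Erbb4, Dcx and Pafah1b1, at 40.5% to 40.6% GC, lie at -0.85 to -1.60. The 4 partner genes, chosen with their values known, lie above 0, among them Map1a and Dync1h1 at 54.8% and 53.7% GC. Partner genes left unmarked lie on both sides of 0, among them Dync1i1 at 52.8% GC below it and Actr1a at 53.8% GC above it.

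The receptors Cxcr4 and Erbb4 were set against the other tested protein-coding genes by the distance between their log2(FPKM + 1) profiles over the 6 libraries, each centred on its mean. Unnamed genes and symbols such as Gm, Rik and AC or dates were skipped. Among 10987 genes, those close to Cxcr4 included Fgf1, a fibroblast growth factor (distance 0.0984), and Zfp36l1, an RNA-binding protein (0.109). Fgf1 stood at 3.45, 2.33 and 6.52 FPKM with AAV-shbrpf1, against 3.29, 2.51 and 6.61 FPKM with AAV-scramble in libraries 1 to 3, which is close to Cxcr4 in each. Ackr3 lay at 0.476 from Cxcr4, the nearest of the other migration genes. Closest to Erbb4 were Ppp1r12a, a myosin phosphatase subunit (0.141), the kinase gene Taok1 (0.186) and the sorting nexin gene Snx16 (0.202). Among migration genes Nrg3 was the nearest to Erbb4 at 0.981, followed by Dcx at 1.01.

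Partner genes were taken from 6 lists of 93 genes outside the 10, of which all have values and 80 passed the filter on low values and were tested, and 0 of the 80 passed between AAV-shbrpf1 and AAV-scramble in either direction by limma, with or without the block, and 0 had an unadjusted p under 0.05 without it. Between numbers 60 of the 80 differed (75%), near the 69.4% of all genes tested, against which the counts of each list are to be read. Among the 10 tested genes of Cxcl12 and chemokine receptor signaling the median log2 difference between the viruses was -0.097, and 9 differed between numbers. Cxcl12, the ligand, was nearly absent, at 0.734, 0.0934 and 0.0662 FPKM with AAV-shbrpf1 and 1.12, 0.0549 and 0.0736 FPKM with AAV-scramble. Only the libraries numbered 1 held more than a trace. Summed fibroblast and meningeal markers were 15.6 FPKM in AAV-shbrpf1 library 1 and 36.3 FPKM in AAV-scramble library 1, and at most 0.545 FPKM in the other 4; their part in the Cxcl12 level was not tested. The chemokine Cxcl14 was higher than Cxcl12, at 7.62, 14.8 and 16.2 FPKM with AAV-shbrpf1 and 6.64, 14.5 and 18.9 FPKM with AAV-scramble. The G protein beta genes Gnb1 and Gnb2 were the most abundant of that list, at 111 ± 9.82 and 60.7 ± 24.5 FPKM with AAV-shbrpf1, against 119 ± 14.1 and 63.7 ± 16.7 FPKM with AAV-scramble (SD, n = 3).

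In the neuregulin, ErbB and EGF family 10 of 16 genes were tested, with a median difference of 0.018, and 6 differed between numbers. Erbb2, the coreceptor that pairs with Erbb4, stood at 1.11, 2.21 and 1.82 FPKM with AAV-shbrpf1 and 0.902, 2.005 and 1.81 FPKM with AAV-scramble, lowest in number 1 where Erbb4 was highest. Erbb3 reached at most 0.191 FPKM, so that Erbb4 was the highest of the 3 in every library. Grb2, a signaling adaptor, was at 43.8, 55.1 and 46.3 FPKM with AAV-shbrpf1, against 17.8, 53.4 and 47.03 FPKM with AAV-scramble, where library 1 of AAV-scramble was apart from the other 5. Bace1, a protease that can process Nrg1, was at 19.7 ± 3.14 FPKM with AAV-shbrpf1, against 15.2 ± 4.70 FPKM with AAV-scramble (SD, n = 3).

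Microtubule proteins formed the most abundant list, with 12 of 13 genes tested, a median difference of -0.0027 and 9 genes that differed between numbers. Tuba1a stood at 2776 ± 789 FPKM with AAV-shbrpf1 and 2810 ± 715 FPKM with AAV-scramble, and Tubb2b at 868 ± 59.9 FPKM with AAV-shbrpf1 and 889 ± 157 FPKM with AAV-scramble (SD, n = 3). Dclk2, the closest relative of Dclk1, also varied little, at 20.7 to 23.5 FPKM over the 6 libraries. Map1a, chosen once its values were known, was highest in number 2 where Dcx was lowest. It stood at 64.1, 341 and 161 FPKM with AAV-shbrpf1 and 59.9, 326 and 160.9 FPKM with AAV-scramble. Others of the list were split: Map4 and Mapt were also highest in number 2 in both groups, while Map2 and Mapre1 were lowest there.

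Among 8 partners of Cdk5 the median difference was -0.008 and 5 differed between numbers. Cdk5r2, which encodes the second activator p39, was at 15.98, 41.2 and 20.4 FPKM with AAV-shbrpf1 and 13.9, 40.2 and 21.1 FPKM with AAV-scramble. It was highest in number 2, unlike Cdk5r1, which was highest in number 3. Dpysl2, a Cdk5 substrate, stood at 71.6 ± 8.01 FPKM with AAV-shbrpf1, against 64.6 ± 6.74 FPKM with AAV-scramble (SD, n = 3).

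The Lis1, dynein and dynactin list had all 20 genes tested, a median difference of -0.019 and 14 genes that differed between numbers. Ndel1 and Nde1, which tie Lis1 to dynein, were at 13.7 to 20.2 and 5.28 to 8.37 FPKM over the 6 libraries. Pafah1b2 and Pafah1b3, the catalytic subunits that join Lis1 in an acetylhydrolase, were at 19.2 to 33.9 and 15.95 to 25.5 FPKM. In pair 3, where Pafah1b1 differed 2.85 times, Ndel1, Nde1, Pafah1b2 and Pafah1b3 stood at 16.6, 7.25, 28.1 and 19.9 FPKM with AAV-shbrpf1, against 15.6, 8.37, 26.5 and 24.9 FPKM with AAV-scramble. Dynll2, a dynein light chain, was the most abundant, followed by Dynlrb1, at 251 ± 44.2 and 147 ± 11.4 FPKM with AAV-shbrpf1, against 242 ± 37.1 and 142 ± 18.0 FPKM with AAV-scramble (SD, n = 3). Dync1h1, the dynein heavy chain, and Dctn1, the largest dynactin subunit, were likewise chosen with their values known and ran opposite to Pafah1b1 over numbers 1 and 2. Dync1h1 stood at 63.5, 186 and 109 FPKM with AAV-shbrpf1 and 65.9, 186 and 106 FPKM with AAV-scramble, and Dctn1 at 44.9, 129.8 and 57.2 FPKM with AAV-shbrpf1, against 41.6, 141 and 62.3 FPKM with AAV-scramble. Most genes of the list were instead lower in number 2 than the mean of numbers 1 and 3, as Pafah1b1 was. Among these were Dync1i2, Dync1li2 and Dynlt3, while Actr1a, Dynll2 and Pafah1b3 were among those that were higher.

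Of 25 other genes of interneuron migration 21 were tested, with a median difference of -0.041, and 18 differed between numbers. Efnb3, an ephrin that repels migrating interneurons, was at 90.9 ± 19.1 FPKM with AAV-shbrpf1 and 87.9 ± 24.9 FPKM with AAV-scramble, and Ntrk2, the receptor of the neurotrophin Bdnf, at 40.3 ± 12.5 FPKM with AAV-shbrpf1 and 40.4 ± 9.74 FPKM with AAV-scramble (SD, n = 3). Met, Hgf, Gdnf and Bdnf stayed under the filter on low values.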

How the data were processed

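RNA of 6 samples was sequenced as paired ends, per the labels' protocols. The authors deposited 1 table of 55335 genes; its header names no unit, and the deposited values are read as FPKM, since they are not whole and have no fixed total. FastQC, StringTie and DESeq2 and the build mm9 are named in the submitters' processing notes; sources used here give no aligner, annotation or strand use. Of 55154 identifiers found in GENCODE M21 (GRCm38), 54899 share both ends with the deposited coordinates, so positions are given as GRCm38.

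The 12792 genes that reached a group mean of 1 FPKM entered limma 3.58.1 (R 4.3.3) on log2(FPKM + 1), with a trend, two-sided tests and Benjamini-Hochberg adjustment over them all. A fold on this scale understates changes of low genes. The F test between replicate numbers had the group in the model. Deviations from group means correlated at 0.866, 0.829 and 0.574 between same-numbered libraries, so the numbers were taken as pairs. Between other libraries the correlation was at most 0.00199. Deviations cancel out within a group, so high values for same numbers by themselves push these others down. Depth came from 11673 single-exon, single-transcript genes over 400 nt; fragments of a gene were estimated at its longest transcript, and their 95% intervals cover counting error only. Between 40.1% and 44.1% of low values lay on whole steps (tolerance 0.03), so no count test was run. GC content and length are those of the longest GENCODE transcript. Sequences are from RefSeq (GRCm38.p6).

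The genes and lists were chosen with earlier results of these data known. Named were the 10 genes, list genes past the threshold or else the 2 most abundant of a list, direct partners, and the 3 genes nearest to Cxcr4 and Erbb4, of which 1 is not reported here. Scripts were tested on simulated data.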

Additional observations from a re-analysis of the deposited data

How the results depend on the processing

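Between AAV-shbrpf1 and AAV-scramble, 0 migration genes passed in any fit run: with the replicate block, a pseudocount of 0.1 FPKM, no filter, quantile normalization, the GC and length trend removed under the block, or any library or pair left out. Over all genes the count stayed at 0 except under the replicate block without a pair (filter kept from all 6 libraries), where the counts ran from 0 to 3. For the 9 genes the replicate block, which pairs same-numbered libraries, changed no call, with 0 genes past the threshold. It could not change the differences themselves, since every number occurs once in each group. The sign of Cxcr4 turned to 0.0046 under quantile normalization and to 0.0035 with the trend removed. When 1 library or pair was left out, the log2 difference ran from -0.36 to 0.32 for Cxcr4, -0.12 to 0.36 for Ackr3, -0.70 to 0.36 for Erbb4, -0.26 to 0.30 for Nrg3 and -0.61 to 0.46 for Dcx. It ran from -0.11 to 0.074 for Dclk1, -0.11 to 0.054 for Cdk5, -0.12 to 0.21 for Cdk5r1 and -0.22 to 0.90 for Pafah1b1. Fits without 1 library had no block, so the numbers were then uneven between the groups. Leaving out a pair under the block turned Erbb4 to 0.073 and Nrg3 to 0.15 (pair 2), Dclk1 to 0.036 (pair 1) and Pafah1b1 to -0.22 (pair 3). In those fits the sign held for Cxcr4 (-0.031 to -0.014), Ackr3 (0.033 to 0.14), Dcx (-0.25 to -0.033), Cdk5 (-0.084 to -0.00068) and Cdk5r1 (0.026 to 0.071). Counting the fits without 1 library, the direction turned in at least 1 setting for each of the 9 genes.

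Between numbers, 8876 genes differed, and 4786 to 8655 with 1 library left out (4786 without AAV-scramble library 1, 5342 without AAV-shbrpf1 library 1), and 5765 with the GC and length trend removed, an alternative added after the data were seen. Of the migration genes 7 differed, 3 to 7 with 1 library left out, and 4 (Dcx, Cxcr4, Cdk5r1 and Ackr3) of 10 without the filter on low values, where 7194 of 31057 genes (23.2%) differed. With a pseudocount of 0.1 Pafah1b1 did not pass (limma adjusted p = 0.0554). The cause of these changes was not tested. At 15.2 to 36.3 fragments per library, depth limits what can be said of Nrg1.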
